A study of Mus with 8 samples.

Results

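The potassium channel genes of mouse uterus were followed here in 8 RNA sequencing libraries. The members are the rows of the count table whose symbol starts with Kcn, which numbered 97 of 31269. Of these, 3 (Kcna10, Kcnk9 and Kcnk15) had no count in any library and were dropped, which left 94 members. A count of 0 allows up to 3 counts per library, or 0.0410 to 0.0445 CPM (counts-per-million). Per the labels, 4 libraries came from uteri with a deficiency of PGR, the progesterone receptor, in the myometrium, and 4 from controls, all at day 6 of pseudopregnancy, a hormonal state under progesterone without embryos, which a sterile mating sets off. The labels place the tissue around embryo implantation sites, although such a uterus holds none. The sources used here do not give the promoter or Cre line behind the deficiency, the alleles of the controls, the strain or the age. They also do not say which libraries share an animal, and the spread behind each p-value may therefore be technical.

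Potassium channels let potassium leave the cell and so pull the membrane voltage toward its resting level. In uterine muscle this opposes the opening of voltage-gated calcium channels that starts a contraction, and some of these channels also serve secretion by the epithelium and the tone of vessels. The pore is built from subunits of several families. Voltage-gated Kv subunits open on depolarization. Slo and SK subunits open with calcium, or in some cases sodium or pH. Inward rectifiers (Kir) set the resting voltage and couple it to metabolism or G proteins, and tandem-pore (K2P) subunits carry leak current. Auxiliary subunits of the Kcnab, Kcne, Kcnip and Kcnmb groups bind to pores and change their gating or traffic. The Kcn prefix also takes in a regulator of channel assembly and noncoding RNAs.

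Total counts per library ran from 70296369 to 72364750. Levels in CPM use library sizes scaled by the TMM method and cover the whole tissue. Pgr, the targeted gene, measured 177 ± 12.1 CPM in the libraries labelled PGR-deficient and 156 ± 22.8 CPM in the controls (SD, n = 4 each). The log2 difference of Pgr, PGR-deficient over control, stood at 0.18 ± 0.11 (SE), with an edgeR adjusted p of 0.338 and a two-sided exact permutation p of 0.2 (the smallest possible is 0.0286), so Pgr was not lower under the label. Counts over the whole tissue do not separate a loss in muscle cells alone, and each direction below rests on the label. Smooth muscle markers were present in all 8 libraries, at a summed 4565 to 5326 CPM in the PGR-deficient libraries and 4574 to 6775 CPM in the controls, and 10 of 10 had negative differences (median log2 difference -0.24).

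PGR-deficient libraries 2 and 3 stood apart in their marker levels. For many results that rest on them, the log2 difference is given below with and without both. Epithelial markers (10 genes) summed to 3246 and 2546 CPM in these libraries, against 1300 and 1512 CPM in PGR-deficient libraries 1 and 4 and 1569 to 1725 CPM in the controls. Not all of them were high in libraries 2 and 3, where Krt18, Cldn4 and Wfdc2 lay inside the control range and the rest above it. Endothelial markers (8 genes) summed to 755 and 868 CPM in libraries 2 and 3, against 1401 and 1257 CPM in libraries 1 and 4 and 1124 to 1362 CPM in the controls. Kdr was the exception, at 102 and 96.5 CPM in libraries 2 and 3 against 96.9 to 117 CPM in the controls. Pericyte markers (6 genes) summed to 553 and 641 CPM in libraries 2 and 3, against 815 and 824 CPM in libraries 1 and 4 and 779 to 900 CPM in the controls. Among these, Pdgfrb lay inside the control range in both libraries, and Cspg4 and Higd1b did in library 3. Mesothelial markers (5 genes) summed lower in every PGR-deficient library, at 148 to 243 CPM against 297 to 378 CPM in the controls. Most of this sum was Wt1 (mean 156 CPM under the label against 263 CPM). Wt1 and Upk1b lay below every control, while Msln, Upk3b and Lrrn4 overlapped between the groups. Leukocyte markers (9 genes) summed higher, at 796 to 974 CPM against 666 to 795 CPM, and the groups nearly touched. Of the 9 leukocyte markers 8 had positive differences, but only Csf1r lay above every control. Stromal markers (8 genes) summed to 7063 to 8465 CPM against 5398 to 6950 CPM, and nerve and Schwann cell markers (8 genes) to 11.9 to 13.4 CPM against 13.8 to 15.6 CPM. Of the 8 stromal markers, 4 had positive and 4 negative differences. The higher stromal sum came mainly from Col1a1 (mean 2363 CPM under the label against 1483 CPM) and Col3a1 (2825 against 2242 CPM). Hand2 lay below every control in the PGR-deficient libraries (mean 107 against 181 CPM). Skeletal muscle markers (7 genes) summed lower in every PGR-deficient library than in the controls, where they summed to 76.7 to 111 CPM. Most of this sum was Acta1 (mean 47.6 CPM under the label against 72.9 CPM). None of the markers found in the table was at 0 in all libraries. The skeletal muscle markers Myh1 and Myh4 reached at most 0.0148 CPM in any library, within what a count of 0 allows. In bulk tissue, fewer cells of a type and less RNA per cell cannot be told apart.

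**Figure D1:**
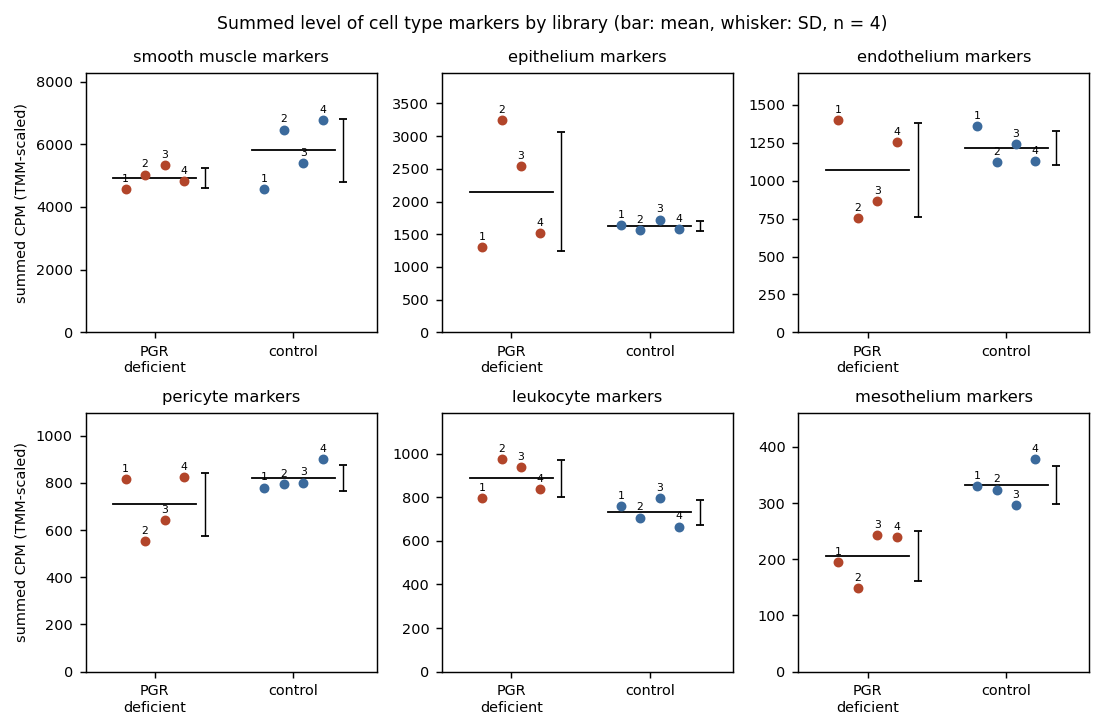
Summed level of the smooth muscle, epithelial, endothelial, pericyte, leukocyte and mesothelial markers by library, in TMM-scaled CPM. PGR-deficient libraries are at left in red and controls at right in blue. Numbers are the library numbers, bars the group means and whiskers the SD (n = 4). PGR-deficient libraries 2 and 3 are high for epithelial markers (3246 and 2546 CPM) and low for endothelial markers (755 and 868 CPM).

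Differences between the groups in potassium channel genes had both signs, and none passed edgeR's test over all genes. Of the 94 members, 75 had enough counts to be tested, and 34 of these had a positive and 41 a negative difference. edgeR's quasi-likelihood test called 0 of 75 members at an adjusted p of 0.05, as it called 0 of all 17629 genes tested (0%). At an unadjusted p under 0.05 stood 20 members (7 higher, 13 lower) in the PGR-deficient libraries, or 26.7%, against 24.8% of all genes, so this count is near the background. By direction the shares were 9.33% of members higher, against 13% of all genes, and 17.3% of members lower, against 11.8% of all genes. The 13 lower members became 8 without PGR-deficient library 2 (10.7%, against 9.16% of all genes without it). They became 8 without PGR-deficient library 3 (10.4%, against 10.3%) and 8 without control library 1 (10.5%, against 9.21%). They became 7 without control library 3 (9.21%, against 10.1%) and 6 without control library 4 (7.79%, against 8.37% of all genes without that library). They stayed at 13 without PGR-deficient library 1 (17.1%, against 10.8%) and without control library 2 (16.9%, against 10.4%). Without PGR-deficient library 4 they rose to 16 (21.1%, against 14.3%). The median log2 difference was -0.04 over the members and 0.01 over all genes tested.

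With all 8 libraries, the other call rules gave shares of members at or under those of all genes, when counted over all tested. DESeq2 called 9 members, or 12%, against 14.3% of all genes. By direction it called 5 members higher (6.67%, against 7.5% of all genes) and 4 lower (5.33%, against 6.81%). DESeq2 gave no adjusted p for 13 of 75 members and 1075 of 17629 genes. These count as not called, which lowers its share of members more than that of all genes. limma-voom called 0 members, against 2 genes in all (0.0113%), 1 higher and 1 lower (0.00567% each). The PGR-deficient libraries lay wholly on one side of the controls for 5 members above (6.67%, against 7.61% of all genes) and 6 members below (8%, against 8.66%). Those below numbered 13 without PGR-deficient library 4 (17.1%, against 14.1% of all genes without it) and 11 without control library 2 (14.3%, against 12.2%). Without PGR-deficient libraries 2 and 3, 79 members were tested, of which 9 were higher (11.4%, against 8.97% of all genes) and 7 lower (8.86%, against 9.48%) at an unadjusted p under 0.05. DESeq2 then called 7 members (8.86%, against 8.11% of all genes), 4 of them higher (5.06%, against 3.45%) and 3 lower (3.8%, against 4.66%). These shares are close to the background, and above it for the higher genes.

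**Figure D2:**
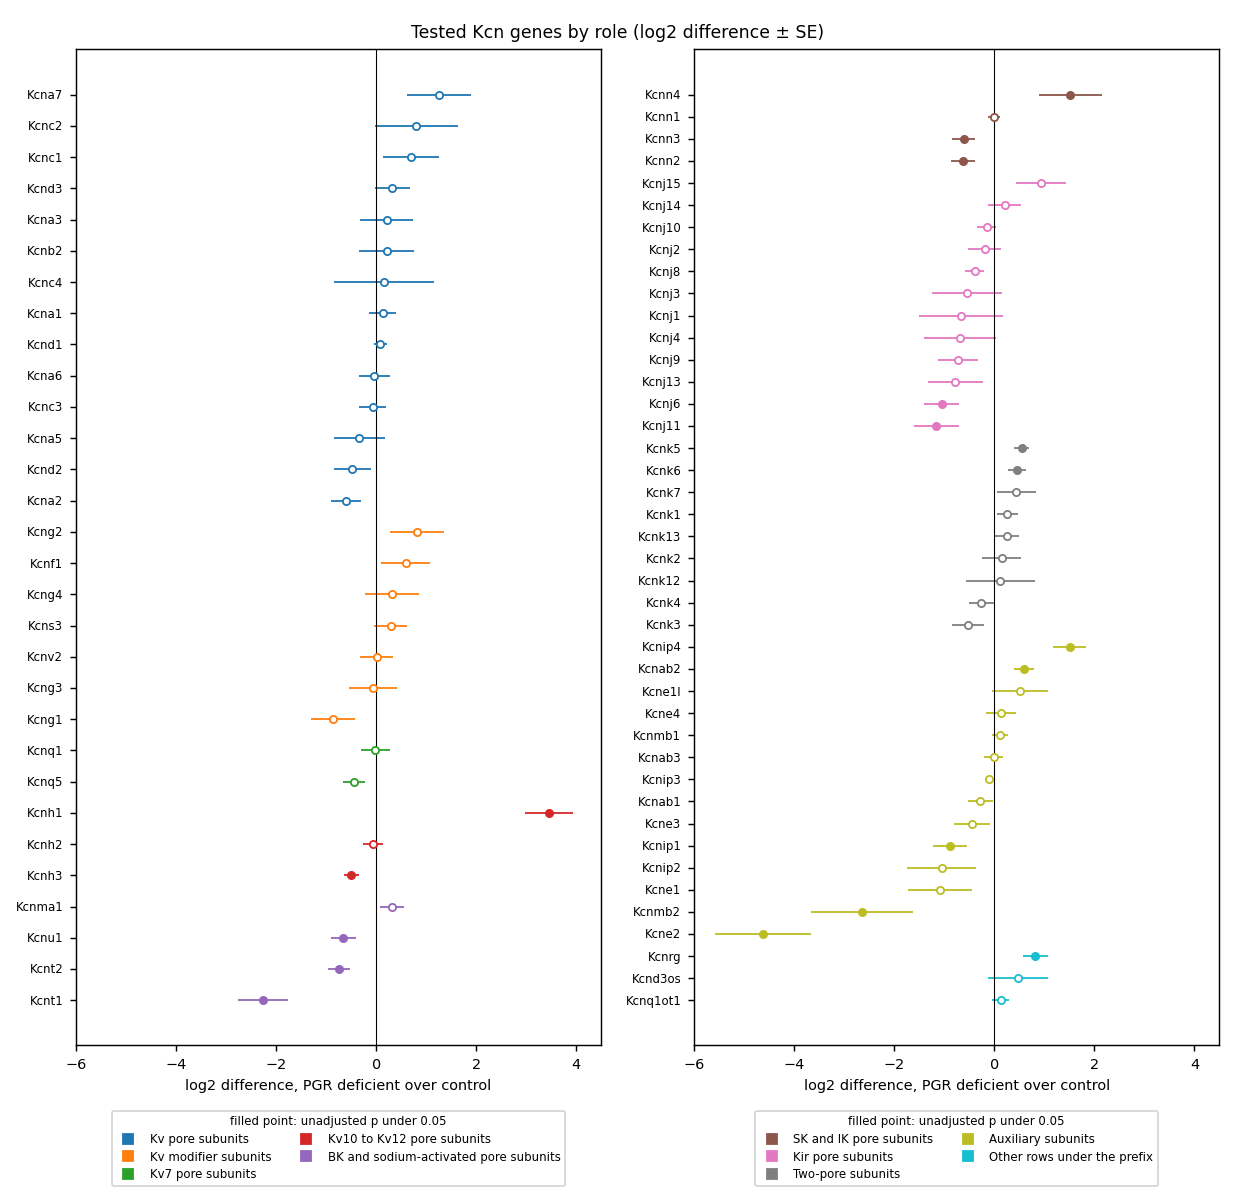
Log2 difference of PGR-deficient over control for 72 of the 75 tested Kcn genes, grouped by role, with horizontal bars for the SE and filled points for an unadjusted p under 0.05 in edgeR. The largest differences are Kcnh1 at 3.45 and Kcne2 at -4.62, while most points lie within 1 of 0 on the log2 scale.

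The group of Kcnh1, Kcnh2 and Kcnh3 held the member with the smallest p. Kcnh1 encodes EAG1, a voltage-gated channel best known in brain and in tumours (chromosome 1, 192189144 to 192510159, GRCm38.p6). It measured 2.90, 4.64, 1.26 and 1.48 CPM in PGR-deficient libraries 1 to 4, against 0.207, 0.240, 0.178 and 0.310 CPM in control libraries 1 to 4. Every PGR-deficient library lay well above every control, and the raw counts were 89 to 313 against 13 to 22. On the log2 scale the difference came to 3.45 ± 0.48 (SE). That is 10.9-fold, within 95% bounds of 5.13 and 23.3, and edgeR gave an adjusted p of 0.0755. The direction did not rest on libraries 2 and 3, since the log2 difference was 3.22 without both. DESeq2 called it higher with all libraries (adjusted p = 7.71e-09) and without each in turn. Over the alternatives the adjusted p ran from 7.71e-09 to 0.223. Such ranges, here and below, do not take in the DESeq2 fits with libraries left out.

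The relatives of Kcnh1 did not share this pattern. Kcnh2, the ERG channel that repolarizes heart and smooth muscle, measured 59.7, 58.3, 75.5 and 76.6 CPM in the PGR-deficient libraries and 50.9, 92.3, 58.4 and 80.8 CPM in the controls. The groups overlapped throughout, with a fold of 0.957 (95% interval 0.700 to 1.31). Kcnh3, an ELK channel, lay lower in all 4 PGR-deficient libraries, at 6.15, 6.20, 7.83 and 8.35 CPM against 11.5, 9.09, 9.28 and 10.3 CPM (log2 difference -0.50 ± 0.15 SE, edgeR adjusted p = 0.114). It was called lower by DESeq2 with all libraries (adjusted p = 0.0160, range over alternatives 0.0160 to 0.268), and without each library in turn in 4 of 8 fits. The remaining relatives, Kcnh4 to Kcnh8, were not tested, with at most 28 counts in any library.

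Auxiliary subunits showed the widest range, from -4.62 to 1.51 on the log2 scale. Of 14 tested, 2 were higher and 3 lower at an unadjusted p under 0.05 (13% and 11.8% of all genes) and 0 passed over all genes in edgeR. Kcne2, a membrane-spanning subunit that pairs with Kcnq1 in secreting epithelia and with Kcnh2 in heart, was low under the label (chromosome 16, 92292389 to 92298133). It measured 0.180, 0.222, 0.567 and 0.260 CPM in the PGR-deficient libraries (13 to 40 counts), against 0.689, 8.25, 3.37 and 18.1 CPM in the controls. The controls themselves spread widely, and control library 1 was only slightly above the highest PGR-deficient library. The log2 difference was -4.62 ± 0.97 (SE), with an edgeR adjusted p of 0.0906, and it was -5.09 without libraries 2 and 3. DESeq2 called it lower with all libraries (adjusted p = 2.33e-06, range over alternatives 2.33e-06 to 0.252) and without each in turn.

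Its neighbour Kcne1, the minK subunit of the slow cardiac channel, lies 47868 bases away on chromosome 16. Kcne1 measured 0.691, 1.41, 2.30 and 4.36 CPM in the PGR-deficient libraries and 3.93, 3.19, 9.46 and 1.90 CPM in the controls, and the groups overlapped (log2 difference -1.08 ± 0.64 SE, edgeR adjusted p = 0.322). Control library 4 was the highest for Kcne2 and the lowest control for Kcne1. Kcne3, a subunit of Kcnq1 channels in intestine, was at a log2 difference of -0.44 ± 0.36 and Kcne4, an inhibitory subunit, at 0.14 ± 0.31. Kcne4 ranged from 28.7 to 79.0 CPM within the controls alone.

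Subunits that bind Kv4 channels, the Kcnip genes, went in different directions. Kcnip4 (chromosome 5, 48389503 to 49525122) lay above every control in all 4 PGR-deficient libraries, at 3.46, 7.28, 7.90 and 4.60 CPM against 1.75, 2.81, 1.40 and 2.2 CPM. The log2 difference was 1.51 ± 0.33 (SE), a 2.85-fold ratio, with an edgeR adjusted p of 0.0906. It was 0.99 without libraries 2 and 3, which held its highest levels, and DESeq2 called it higher with all libraries (adjusted p = 0.000547, range over alternatives 0.000547 to 0.252) and without each in turn. Inside the Kcnip4 locus lies the noncoding gene 5730480H06Rik, which had a log2 difference of the opposite sign (-0.58 ± 0.14). Kcnip1 was lower, at 6.43, 2.46, 5.43 and 8.21 CPM in the PGR-deficient libraries against 11, 7.45, 11.2 and 12.1 CPM in the controls, with 1 library of overlap (log2 difference -0.89 ± 0.34, edgeR adjusted p = 0.162). The Kcnip1 locus contains all 10687 bases of Kcnmb1, so reads of these 2 genes could be split by the counting. Kcnip3, also known as the transcriptional repressor DREAM, was close in the 2 groups, with a fold of 0.937 (95% interval 0.802 to 1.09). Kcnip2 was set by 1 control: it measured 21.7 CPM in control library 1 and 3.13 to 4.08 CPM in the other controls, against 2.2 to 6.64 CPM in the PGR-deficient libraries.

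Among the Kvβ subunits, Kcnab2 was higher at an unadjusted p under 0.05, at 20.7, 27.1, 18.0 and 14.1 CPM in the PGR-deficient libraries and 14.7, 14.7, 12.2 and 11.1 CPM in the controls. Library 4 under the label lay inside the control range (log2 difference 0.60 ± 0.20 SE, edgeR adjusted p = 0.134). Kcnab1 and Kcnab3 were at -0.27 ± 0.25 and -0.01 ± 0.19. DESeq2 called Kcnab2 with all libraries (adjusted p = 0.0397, range over alternatives 0.0397 to 0.310), but without each in turn only in 1 of 8 fits.

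The large-conductance BK channel, whose pore is Kcnma1 and whose smooth muscle partner is Kcnmb1, was not separated between the groups. Kcnma1 measured 25.0, 39.3, 39.7 and 19.5 CPM in the PGR-deficient libraries and 26.4, 23.2, 21.1 and 28.2 CPM in the controls. Its higher mean came from libraries 2 and 3, and the log2 difference of 0.32 ± 0.23 (SE, edgeR adjusted p = 0.415) became -0.15 without both. Kcnmb1 measured 36.2, 51.4, 44.0 and 40.7 CPM against 32.3, 42.8, 34.6 and 48.8 CPM (log2 difference 0.12 ± 0.16, and -0.04 without libraries 2 and 3). Kcnmb2, a BK subunit that causes inactivation, was low everywhere and lower under the label. It measured 0.0553, 0.0148, 0.0851 and 0.725 CPM in the PGR-deficient libraries, against 1.71, 0.296, 1.83 and 1.71 CPM in the controls, where control library 2 lay below PGR-deficient library 4. The log2 difference was -2.64 ± 1.02 (SE), where edgeR gave an adjusted p of 0.166. Leaving out libraries 2 and 3 made it -1.82.

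The other Slo-type pores were all on the lower side. Kcnt1, the sodium-activated channel Slack (chromosome 2, 25863791 to 25918273), measured 0.816, 0.415, 0.880 and 0.999 CPM in the PGR-deficient libraries and 6.76, 1.79, 1.85 and 4.53 CPM in the controls. Kcnt2, its relative Slick, measured 5.71, 4.57, 5.50 and 7.57 CPM against 12.3, 7.72, 7.57 and 11.6 CPM. Kcnu1, the pH-sensitive Slo3 known from sperm, measured 4.88, 2.83, 4.24 and 6.01 CPM against 8.38, 5.50, 6.39 and 8.04 CPM. The groups did not overlap for Kcnt1 and Kcnt2, although for Kcnt2 they touched within rounding, and they overlapped for Kcnu1. In control libraries 1 and 4 all 3 genes were higher than in control libraries 2 and 3. The log2 differences were -2.26 ± 0.50, -0.74 ± 0.23 and -0.66 ± 0.25 (SE) for Kcnt1, Kcnt2 and Kcnu1, with edgeR adjusted p of 0.0906, 0.116 and 0.160. Without libraries 2 and 3 they were -2.03, -0.56 and -0.37. DESeq2 called Kcnt1 lower with all libraries (adjusted p = 0.000553, range over alternatives 0.000553 to 0.252) and without each in turn. It called Kcnt2 lower with all libraries (adjusted p = 0.0201, range over alternatives 0.0201 to 0.316) and without each in turn in 3 of 8 fits.

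**Figure D3:**
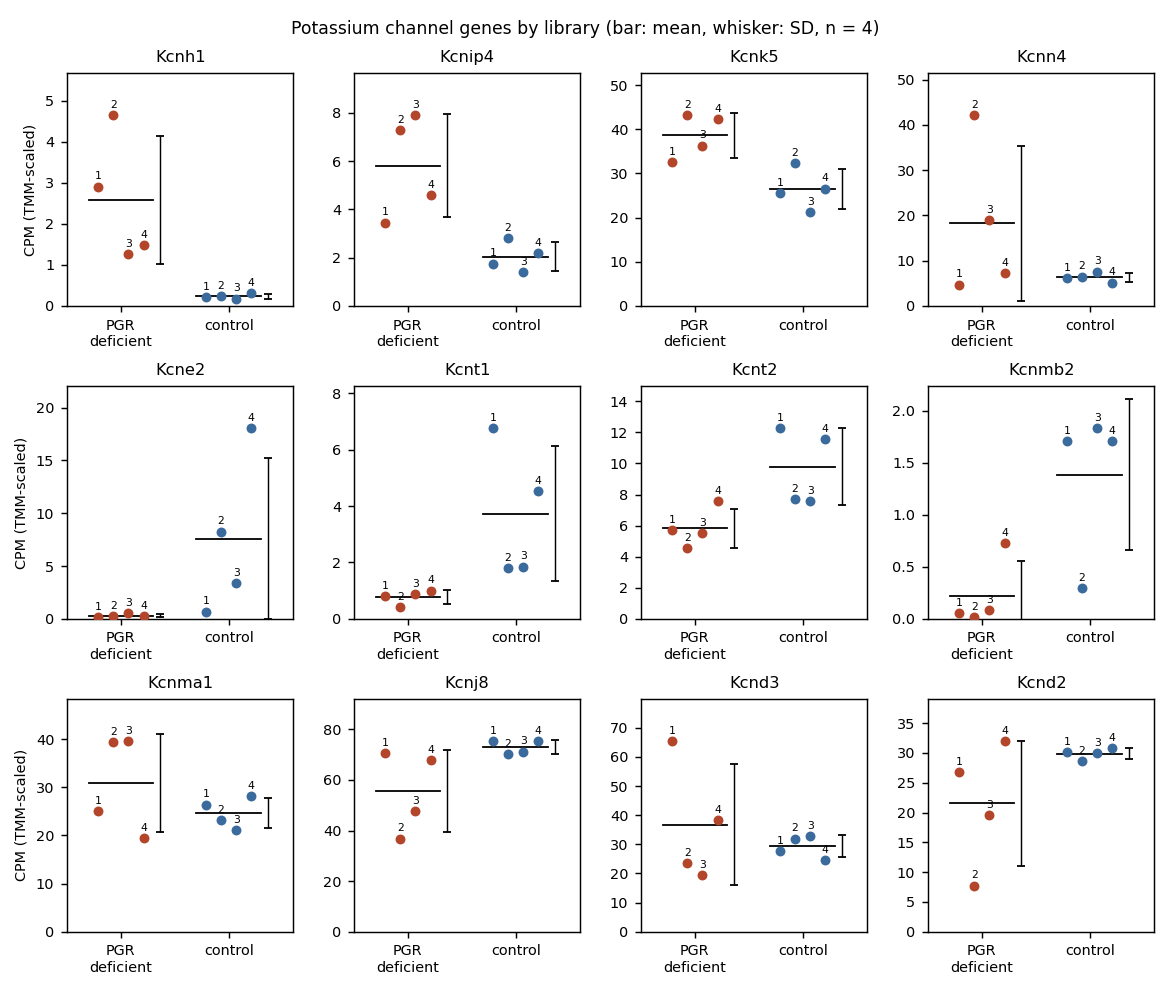
TMM-scaled CPM of 12 Kcn genes in each library, with PGR-deficient libraries at left in red and controls at right in blue; numbers are the library numbers, bars the group means and whiskers the SD (n = 4), cut off at 0 for Kcne2 and Kcnmb2. Kcnh1 lies at 1.26 to 4.64 CPM under the label and 0.178 to 0.310 CPM in the controls, whereas Kcnn4, Kcnma1 and Kcnj8 differ mostly in PGR-deficient libraries 2 and 3.

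The small- and intermediate-conductance calcium-activated pores split by gene. Kcnn4, the intermediate-conductance channel of epithelia and leukocytes, measured 4.71, 42.1, 19 and 7.17 CPM in the PGR-deficient libraries and 6.16, 6.5, 7.6 and 5.16 CPM in the controls. Libraries 2 and 3 alone were high, the same 2 that were high for epithelial markers, while library 1 lay just below the control range and library 4 inside it. The log2 difference of 1.52 ± 0.62 (SE, edgeR adjusted p = 0.182) became -0.09 without both, and the part of epithelial content in it was not tested. Kcnn3, the SK3 channel of myometrium and endothelium, measured 18.3, 13.5, 21.8 and 11.1 CPM in the PGR-deficient libraries against 19.7, 23.8, 23.2 and 31.9 CPM in the controls. Only PGR-deficient library 3 reached into the control range, and the log2 difference was -0.61 ± 0.23 (SE, edgeR adjusted p = 0.162) and -0.74 without libraries 2 and 3. Kcnn2, the SK2 channel, was at -0.62 ± 0.23 (edgeR adjusted p = 0.160), with 1 PGR-deficient library inside the control range. Kcnn1, the SK1 channel, was level at 12.1 ± 1.07 CPM and 12.1 ± 1.08 CPM (SD, n = 4 each; fold 0.998, 95% interval 0.837 to 1.19).

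Of 12 tested inward rectifiers 10 had negative differences, 2 were lower at an unadjusted p under 0.05, and 0 passed over all genes in edgeR. Of all genes, 8470 of 17629 had negative differences and 11.8% were lower at that unadjusted p. Kcnj8, the Kir6.1 pore of the ATP-sensitive channel in vascular smooth muscle and pericytes, measured 70.6, 36.8, 47.6 and 67.8 CPM in the PGR-deficient libraries and 75.2, 70.1, 71.2 and 75.4 CPM in the controls. Its low values were again those of libraries 2 and 3, which were also low for pericyte and endothelial markers. The log2 difference was -0.39 ± 0.19 (SE, edgeR adjusted p = 0.245) and -0.07 without both. Abcc9, the sulfonylurea receptor that assembles with Kcnj8, followed the same libraries, at 108, 62.0, 87.2 and 108 CPM against 128, 107, 107 and 121 CPM (log2 difference -0.34 ± 0.17, and -0.10 without libraries 2 and 3). The part of vessel content in these differences was not tested.

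The inward rectifiers at an unadjusted p under 0.05 were both near the lowest levels tested. Kcnj11, the Kir6.2 pore, had 5 to 18 counts per library under the label and 13 to 33 in the controls (log2 difference -1.15 ± 0.44 SE, edgeR adjusted p = 0.165). Kcnj6, a G protein-gated pore, had 4 to 8 counts under the label and 10 to 21 in the controls (-1.05 ± 0.35, adjusted p = 0.134 in edgeR), and its groups did not overlap in CPM. Kcnj2, a strong rectifier that sets the resting voltage, overlapped between the groups at 5.52, 3.41, 5.14 and 10.2 CPM against 8.79, 5.47, 7.77 and 5.70 CPM. Its log2 difference was -0.19 ± 0.33, and 0.19 without libraries 2 and 3. Kcnj13, the Kir7.1 channel that holds the myometrial resting voltage in pregnancy, had 7 to 30 counts under the label and 9 to 33 in the controls, too few to place it (-0.78 ± 0.55, edgeR adjusted p = 0.405). Kcnj13 lies inside the span of Gigyf2, whose own log2 difference was -0.03 ± 0.07. Kcnj3 and Kcnj4, pores of the G protein-gated and strong rectifier groups, were lowest in PGR-deficient libraries 2 and 3, with Kcnj3 at 0.133 and 0.142 CPM there and 0.663 to 1.44 CPM in the other 6 libraries. Their log2 differences were -0.54 ± 0.70 and -0.68 ± 0.71 (SE), and 0.28 and 0.05 without libraries 2 and 3.

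Among the tandem-pore leak channels 7 of 9 tested had positive differences under TMM scaling, 2 were higher at an unadjusted p under 0.05, and 0 passed over all genes in edgeR. Of all genes, 9159 of 17629 had positive differences and 13% were higher at that unadjusted p. Kcnk5, the alkaline-activated channel TASK2 (chromosome 14, 20140057 to 20181782), measured 32.6, 43.2, 36.3 and 42.4 CPM in the PGR-deficient libraries against 25.6, 32.4, 21.3 and 26.5 CPM in the controls. All 4 lay above all controls, though library 1 under the label was only just above control library 2 (log2 difference 0.55 ± 0.14 SE, a 1.46-fold ratio, edgeR adjusted p = 0.101). It was 0.51 without libraries 2 and 3, and DESeq2 called it higher with all libraries (adjusted p = 0.0100, range over alternatives 0.0100 to 0.260) and without each in turn in 6 of 8 fits. Kcnk6, the TWIK2 channel, also lay above all controls, at 17.3, 30.0, 20.1 and 17.3 CPM against 14.7, 16.3, 16.5 and 14.3 CPM. Library 2 carried most of this, and the log2 difference of 0.45 ± 0.18 became 0.16 without libraries 2 and 3.

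The other tandem-pore channels overlapped between the groups. Kcnk1, the TWIK1 channel, measured 112, 176, 144 and 97.0 CPM in the PGR-deficient libraries and 90.3, 124, 92.9 and 134 CPM in the controls (log2 difference 0.26 ± 0.21, and -0.07 without libraries 2 and 3). Kcnk2, the stretch-activated TREK1 channel studied in myometrium, was high in 1 library, at 5.31, 20.4, 8.6 and 9.65 CPM against 10.6, 7.41, 9.35 and 12.4 CPM. The log2 difference of Kcnk2 was 0.15 ± 0.38, and -0.41 without libraries 2 and 3. Kcnk3, the acid-sensitive TASK1 channel, was low in libraries 2 and 3, at 6.75, 2.74, 3.01 and 6.44 CPM against 7.44, 6.17, 7.19 and 6.49 CPM (-0.53 ± 0.31, and -0.04 without both).

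Among the Kv7 pores, Kcnq5, a smooth muscle channel, measured 4.63, 5.93, 7.65 and 5.70 CPM in the PGR-deficient libraries against 6.72, 8.31, 6.58 and 10.8 CPM in the controls. The groups overlapped through library 3 (log2 difference -0.44 ± 0.22 SE, edgeR adjusted p = 0.242), and the difference was -0.65 without libraries 2 and 3. Kcnq1, the Kv7 pore of heart and secreting epithelia, spread widely under the label. It measured 14.8, 31.0, 41.0 and 20.5 CPM in the PGR-deficient libraries and 23.2, 25.2, 28.1 and 32.2 CPM in the controls (log2 difference -0.02 ± 0.29). Libraries 1 and 4 lay below all controls, and without libraries 2 and 3 the log2 difference was -0.62 (DESeq2 adjusted p = 0.0261; over the other alternatives the adjusted p ran from 0.170 to 0.992). The noncoding RNA Kcnq1ot1 overlaps 83437 bases of Kcnq1, and whether the counting used strand is not given, so reads of the 2 cannot be told apart. Kcnq1ot1 itself measured 33.4, 21.1, 21.2 and 21 CPM against 23.6, 25.2, 19.3 and 20.3 CPM (0.13 ± 0.18).

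None of the 15 tested Kv1 to Kv4 pores (Kcna, Kcnb, Kcnc and Kcnd genes) stood at an unadjusted p under 0.05 in either direction, and edgeR called 0 at the adjusted threshold, as did DESeq2. Of all genes, 24.8% stood at that unadjusted p and DESeq2 called 14.3%. Several of these pores had tight controls and scattered PGR-deficient libraries. Kcnd2, a Kv4 pore of the transient outward current, measured 26.8, 7.74, 19.5 and 32.0 CPM in the PGR-deficient libraries against 30.1, 28.7, 30.0 and 30.8 CPM in the controls. Its log2 difference was -0.47 ± 0.36 (SE), and -0.02 without libraries 2 and 3. Its relative Kcnd3 measured 65.5, 23.5, 19.5 and 38.3 CPM against 27.7, 32.0, 32.9 and 24.7 CPM. For Kcnd3, libraries 1 and 4 lay above and libraries 2 and 3 below all controls, so that a log2 difference of 0.32 ± 0.35 (SE, edgeR adjusted p = 0.583) with all libraries was 0.83 without libraries 2 and 3.

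Other voltage-gated genes split in the same way between these libraries. Kcnc4, a fast Kv3 pore, measured 3.03, 0.0148, 0.270 and 1.81 CPM in the PGR-deficient libraries and 0.762 to 1.46 CPM in the controls. Its log2 difference of 0.15 ± 1.00 (SE) became 1.07 without libraries 2 and 3. Kcng4, a silent subunit that modifies Kv2 channels, measured 12.3, 1.78, 4.65 and 10.5 CPM and 3.85 to 7.67 CPM. Kcnc2, another Kv3 pore, went the other way, at 2.14, 12.9, 28.1 and 3.42 CPM, but the controls also ranged from 2.59 to 13.1 CPM. The log2 difference of Kcnc2 was 0.80 ± 0.83 (SE), and -1.26 without libraries 2 and 3. Without libraries 2 and 3, DESeq2 called Kcnd3 (log2 difference 0.83, adjusted p = 0.0100) and Kcng4 (0.96, adjusted p = 0.0351) higher and Kcnq1 lower, none of which it called with all libraries. Those 3 were chosen for mention after that result was seen.

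Kcna5, a vascular Kv1 pore, overlapped between the groups (log2 difference -0.34 ± 0.51, and 0.25 without libraries 2 and 3). Kcnd1, a Kv4 pore, was close in the groups, at 7.37 ± 0.384 CPM and 6.97 ± 0.879 CPM (SD, n = 4 each; fold 1.06, 95% interval 0.865 to 1.30). Of the 7 tested silent Kv subunits, 0 stood at an unadjusted p under 0.05 (24.8% of all genes), and Kcng1, with the most negative difference of them, was at -0.85 ± 0.44. Kcng1 followed the split within the controls, with 16.0 and 15.5 CPM in control libraries 2 and 4 and 6.03 and 8.49 CPM in control libraries 1 and 3, against 2.46 to 8.51 CPM under the label. Control libraries 2 and 4 were also the higher ones for smooth muscle markers, at 6464 and 6775 CPM summed against 4574 and 5410 CPM in control libraries 1 and 3.

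**Figure D4:**
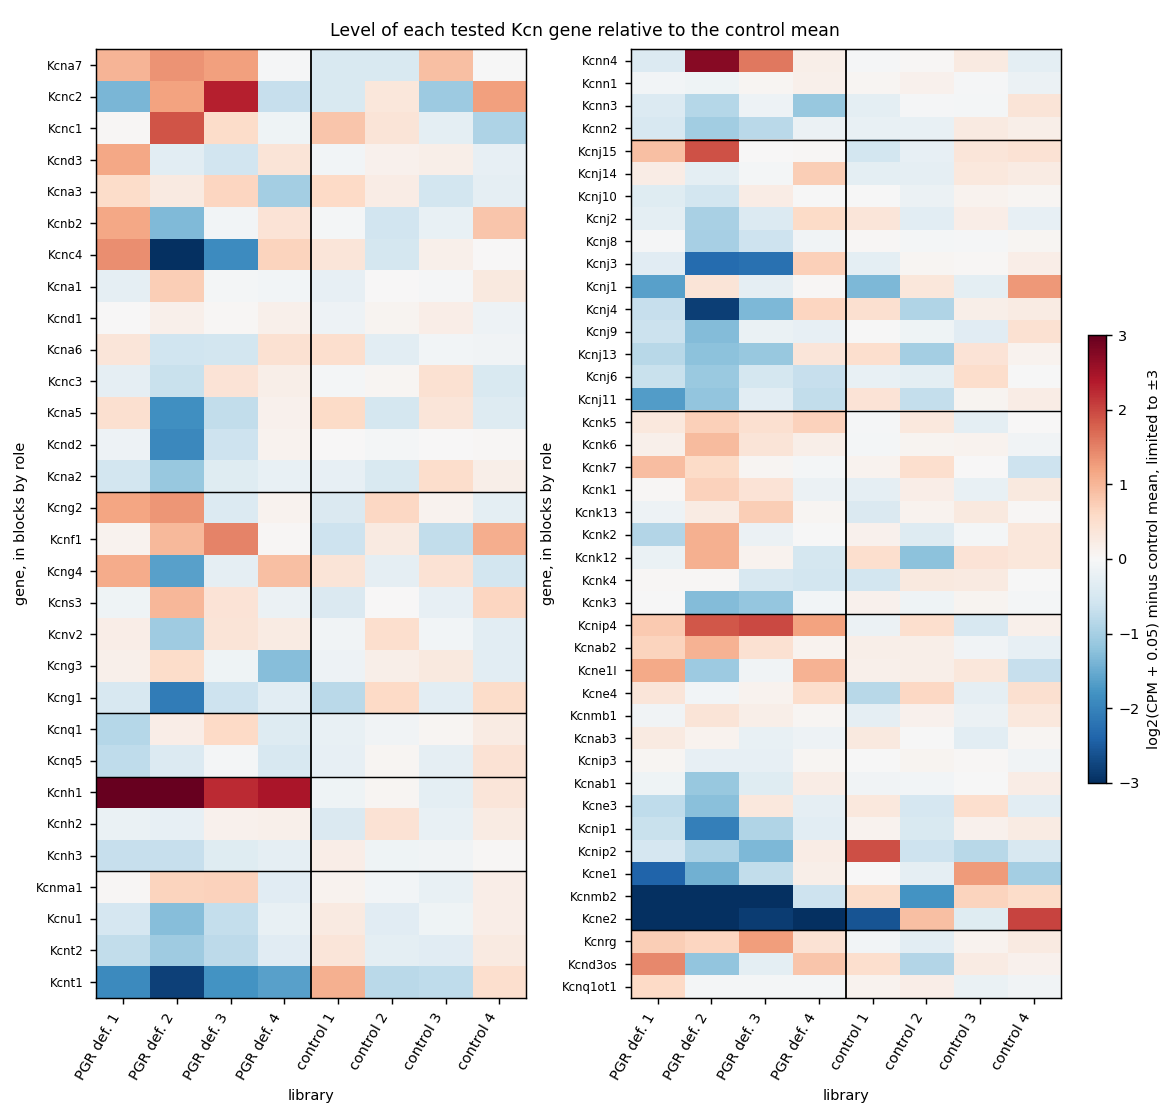
Level of 72 of the 75 tested Kcn genes in each library, as log2 of CPM plus 0.05 minus the mean of the controls, with colours limited to 3 in either direction and the 4 PGR-deficient libraries left of the line. Kcnh1 and Kcnip4 are above and Kcnt1 and Kcnmb2 below the control mean in all 4 PGR-deficient libraries, while many rows, such as Kcnd2, Kcnj3 and Kcnn4, depart from it mainly in PGR-deficient libraries 2 and 3.

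The members scattered more among the PGR-deficient libraries than among the controls, as genes at large did. Over the tested members the median SD of log2 CPM was 0.59 in the PGR-deficient libraries and 0.35 in the controls, and over all genes tested 0.24 and 0.15. Members had fewer reads than genes at large, with a median of 415 counts per library against 1854, and the part of low counts in this was not tested. PGR-deficient library 2 was the lowest of all 8 libraries for 32 of 75 members (42.7%), against 28.1% of all genes, and the highest for 16 members (21.3%), against 28.6% of all genes.

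Kcnrg, a regulator that interferes with the assembly of Kv1 channels, lay above every control in the PGR-deficient libraries, at 1.27, 1.19, 1.84 and 1.03 CPM against 0.703, 0.593, 0.808 and 0.917 CPM (log2 difference 0.82 ± 0.25 SE, edgeR adjusted p = 0.116). Its locus overlaps Trim13 by 2831 bases and the noncoding Dleu2 by 5377 bases, whose log2 differences were 0.31 ± 0.12 and 0.29 ± 0.17, so reads of Kcnrg are uncertain. DESeq2 called Kcnrg higher with all libraries (adjusted p = 0.0304, range over alternatives 0.0304 to 0.295) and without each in turn in 1 of 8 fits. The antisense transcript Kcnd3os overlaps Kcnd3 by 1066 bases and followed the same libraries, at 1.62, 0.222, 0.454 and 1.05 CPM against 0.282 to 0.827 CPM in the controls.

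The 19 members below the filter had at most 30 counts in any library. Among them were 5 of the 8 Kcnh genes, the Kv7 pore Kcnq3, the BK subunits Kcnmb3 and Kcnmb4 and the inward rectifiers Kcnj5, Kcnj12 and Kcnj16. With no filter on low counts all 19 were tested, and edgeR put 1 of them, the tandem-pore gene Kcnk10 (3 to 7 counts per PGR-deficient library and 1 to 3 per control), at an unadjusted p under 0.05 and 0 under the adjusted threshold (lowest adjusted p = 0.213).

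At the 5 members that DESeq2 called with all libraries but not without libraries 2 and 3 (Kcnk5, Kcnh3, Kcnt2, Kcnrg and Kcnab2), the log2 differences without both were 0.51, -0.47, -0.56, 0.61 and 0.41. Kcnh1, Kcne2, Kcnip4 and Kcnt1 were called by DESeq2 without both as well, with adjusted p of 2.55e-08, 0.00202, 0.0498 and 0.0122.

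Of a list of 16 channels known in smooth muscle, all were tested, 12 had negative differences and the median log2 difference was -0.29. Over all genes, 8470 of 17629 had negative differences and the median was 0.01. At an unadjusted p under 0.05 stood 3 of the 16 channels, all lower, Kcnn3 and Kcnj11 among them, against 11.8% of all genes lower. edgeR called 0 of these channels at the adjusted threshold. The 10 smooth muscle markers had a median log2 difference of -0.24, with Lmod1 at -0.45 ± 0.15, Smtn at -0.37 ± 0.12 and Myocd at -0.80 ± 0.29 (SE). The part of muscle content in the channel differences was not tested.

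Partner subunits without the Kcn prefix numbered 9, of which 6 were tested, with 2 higher and 1 lower at an unadjusted p under 0.05 and 0 called by edgeR. Of all genes, 13% were higher and 11.8% lower at that unadjusted p. Amigo1, a partner of Kv2 channels, measured 37.2, 23.4, 31.8 and 47.9 CPM in the PGR-deficient libraries and 59.0, 47.3, 52.8 and 59.7 CPM in the controls (log2 difference -0.64 ± 0.20 SE, edgeR adjusted p = 0.121). Lrrc26, a subunit that lets BK channels open in secreting epithelia, measured 1.16, 20.5, 9.26 and 0.602 CPM against 0.536 to 1.31 CPM. As with Kcnn4, only libraries 2 and 3 were high, and the log2 difference of 3.09 ± 1.03 was -0.06 without both. Dpp6, a partner of Kv4 channels, was at 0.72 ± 0.28, and 0.43 without libraries 2 and 3.

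Pumps and cotransporters that load cells with potassium, or carry it with chloride, were measured beside the channels. Of 21 tested, 3 were higher and 6 lower at an unadjusted p under 0.05, and 0 were called by edgeR, while DESeq2 called 3 higher and 5 lower. Over all genes the shares were 13% higher and 11.8% lower at that unadjusted p, and 7.5% higher and 6.81% lower by DESeq2. Fxyd6, a modulator of the sodium pump, measured 65.1, 57.6, 62.6 and 68.1 CPM in the PGR-deficient libraries against 113, 86.4, 94.9 and 130 CPM in the controls (log2 difference -0.74 ± 0.13 SE, edgeR adjusted p = 0.0906). Atp12a, the nongastric proton-potassium pump, measured 8.68, 4.60, 12 and 4.69 CPM against 21.9, 26.5, 20.7 and 37.1 CPM (-1.82 ± 0.35, adjusted p = 0.0906 in edgeR). The PGR-deficient libraries lay below every control for both genes, and without libraries 2 and 3 the log2 differences were -0.67 and -1.98.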

How the data were processed

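RNA was extracted with TRIzol, per the labels' protocols. HISAT2 2.2.1, HTSeq 0.10.0 and the build mm10 are named in the submitters' processing notes, without settings or strand. The authors deposited 1 table of raw counts, whole numbers without any scaling, that covers 31269 symbols and 8 libraries. Its columns were matched to sample titles, and positions of all 94 members come from RefSeq's annotation on GRCm38.p6, the assembly that mm10 names. No exon lengths were at hand, so levels are not compared between genes, and channel sequences are not used here.

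Genes were kept by filterByExpr (17629), scaled by TMM and tested in R 4.3.3 with edgeR 4.0.16 (glmQLFit with legacy=TRUE and glmQLFTest), group as the only term, Benjamini-Hochberg adjustment over all genes and a threshold of 0.05. SE is the difference over the root of F. DESeq2 1.42.0 and limma 3.58.1 (voom) were alternatives on the same genes; DESeq2 gave no adjusted p for 13 of the 75 tested members. Other scalings, filters, a replicate block and fits without single libraries were also run. Scripts were tested on simulated counts. Named genes were Pgr, up to 12 members per direction with the smallest p, 16 smooth muscle channels, and 3 genes per other list, of which examples are printed, and some genes are not reported here; other members in the text were picked once their values were known. Members, lists and tests were chosen with earlier results of these data known. No 2 libraries agreed within sampling noise (chi-square over its degrees of freedom at least 46.5). Intervals and floors for counts of 0 cover the model's or counting error only.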

Additional observations from a re-analysis of the deposited data

Results flagged for a closer look

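Of 140 groups of 4 libraries examined over 70 named genes, 4 held a library whose gap to its nearest neighbour was above Dixon's 95% critical value for 4 samples, and chance alone flags about 1 in 20. Kcnmb2 was flagged in both groups: PGR-deficient library 4 stood at 0.725 CPM above 0.0148 to 0.0851 CPM in the other 3, and control library 2 at 0.296 CPM below 1.71 to 1.83 CPM in the other controls. For Kcnj13, PGR-deficient library 4 stood at 0.410 CPM above 0.104 to 0.152 CPM in the others. For Hand2, a stromal marker, control library 4 stood at 229 CPM above 161 to 172 CPM in the other controls.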

How the results depend on the processing

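Over all genes the adjusted threshold was passed by 0 in edgeR, 2522 in DESeq2, 2 in limma-voom, 3 with legacy=FALSE and 23 with a block for the replicate numbers. Fits that dropped each library in turn gave 0 to 2 by edgeR and 927 (without control 4) to 3961 (without PGR-deficient 4) by DESeq2, which called 1461 without PGR-deficient libraries 2 and 3. The number at an unadjusted p under 0.05 was 4372, and 2896 (without control 4) to 5471 (without PGR-deficient 4) with each library left out. The replicate numbers did not pair the libraries (correlations of deviations 0.20, 0.24, -0.01 and -0.08; libraries 1 and 2 correlated best with their own number, 3 and 4 did not), and the block called 0 members.

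Among members, DESeq2 called 9 where edgeR called 0. The 13 lower at an unadjusted p under 0.05 became 8 with a filter of 1 CPM (14.8%, against 12.5% of all genes). They became 7 without libraries 2 and 3 (8.86%, against 9.48%). With each library left out they ran from 6 (without control 4, 7.79% against 8.37%) to 16 (without PGR-deficient 4, 21.1% against 14.3%). The 7 higher stayed between 5 and 9, and the share of all genes higher was not computed with single libraries left out. Members wholly above the controls numbered 5, or 11 without libraries 2 and 3 (13.9%, against 14.8% of all genes under that setting). Those wholly below numbered 6, or 3 with the 1 CPM filter (5.56%, against 9.24% of all genes). With each library left out, those below ran from 5 (without PGR-deficient 2, 6.67% against 8.97%) to 13 (without PGR-deficient 4, 17.1% against 14.1%). Without control 2 those below numbered 11 (14.3%, against 12.2%). DESeq2's 5 higher and 4 lower members became 2 to 7 and 2 to 10 with each library left out. In the same fits its calls over all genes ran from 927 to 3961. The 7 higher and 10 lower of 76 members came without PGR-deficient 4, where it called 3961 of 17829 genes. Without control 4 it called 2 higher and 2 lower of 77 members, and 927 of 17824 genes. The shares of all genes by direction were not computed for these fits. The median log2 difference of the members stayed negative under every alternative run, from -0.11 without PGR-deficient 1 to -0.00074 with no filter. All of these were smaller in size than the within-group SD of the members' library medians (0.14 on the log2 scale).

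Without libraries 2 and 3 the sign reversed for Kcnn4 (-0.093), Kcnma1 (-0.15), Kcnk1 (-0.073), Kcnmb1 (-0.039), Kcnj2 (0.19), Kcnk2 (-0.41), Kcna5 (0.25), Lrrc26 (-0.062), Cdh1 (-0.10), Emcn (0.044), Esam (0.12) and Cdh5 (0.15). Kcnk2 was at -0.015 in limma-voom and -0.021 with the block. Leaving out each library in turn reversed Kcnj2 (-0.56 to 0.0094), Kcnk2 (-0.33 to 0.38), Kcnq1 (-0.30 to 0.18), Kcnh2 (-0.20 to 0.092), Kcnd3 (-0.11 to 0.53) and Notch3 (-0.054 to 0.37). Genes with 4 to 30 counts in a library are limited by depth. The cause of these changes was not tested. The fits by DESeq2 without each library were chosen after seeing the data.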
